A study of Mus musculus with 4 samples.

Results

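The genes H2-D1, H2-K1, Nlrc5, Psmb9 and Tap1, which serve antigen presentation by major histocompatibility complex (MHC) class I molecules, were followed across the 4 arrays of a study of mutant KIT in mouse EML cells. Members were taken as the probe sets, each a group of short oligonucleotides that reads a transcript, whose platform annotation gives exactly 1 of these symbols. This rule found 13 of the 10861 probe sets, with 7 for H2-D1, 3 for H2-K1 and 1 each for Nlrc5, Psmb9 and Tap1, and these make up 5 of 6404 genes with a value. The 5 genes had been picked with their difference between the cell lines known, so that difference is described without a test.

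EML is a mouse lymphohematopoietic progenitor line normally kept in stem cell factor (SCF), which activates the receptor tyrosine kinase KIT. Its cells had received KIT carrying D816V, in the phosphotransferase domain, or Del417-419insY, in the extracellular domain. The 4 groups were D816V cells without SCF, Del417-419insY cells without SCF, D816V cells with SCF and Del417-419insY cells with SCF, where SCF was given at 250 ng/mL for 48 h. Cells of every group had been transduced with a retroviral vector, selected with geneticin, grown without factor until autonomous and sorted for KIT. Each mutant was thus 1 sorted population, each group had 1 array, and no value has a replicate. The labels give no culture time for the cells without SCF.

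Values were on a log2 scale whose zero is set for each probe set in a way the labels do not state. They can be compared between arrays for the same gene and say nothing of its absolute level. Array medians lay between -0.197, in D816V cells with SCF, and -0.015, in Del417-419insY cells without SCF. Of the marker lists, 5 of 10 progenitor, 8 of 10 mast cell, 2 of 8 dendritic, 1 of 11 T cell, 1 of 9 NK cell, 2 of 10 macrophage and 0 of 6 B cell genes were measured. Because the zero is arbitrary, these values do not show whether a cell type was present or absent.

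MHC class I molecules display peptides from inside the cell to CD8 T cells and NK cells. The proteasome cuts proteins into peptides, the transporter formed by TAP1 and TAP2 carries them into the endoplasmic reticulum, and there they are loaded onto a heavy chain paired with beta-2 microglobulin. Interferons induce many of these genes, and NLRC5 is a transactivator that works on class I promoters through an enhanceosome of RFX, CREB/ATF and NF-Y proteins bound to the S, X and Y boxes.

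All 5 genes stood higher in D816V cells than in Del417-419insY cells, both without and with SCF. Each of the 13 probe sets was 2-fold or more higher in both conditions, by 1.33 to 4.46 on the log2 scale without SCF and by 1.30 to 4.09 with SCF. Over all genes, 6.29% were 2-fold or more higher without SCF, 6.34% with SCF and 5.15% in both conditions; since the members were picked on this contrast, nothing is read from that comparison. The shares 2-fold or more lower were 4.18%, 7.42% and 3.78%, and held no member. The median difference of the 5 genes was 2.37 without SCF and 1.82 with SCF, where the median over all 6404 genes was -0.08 and -0.14. Fewer cells that express a gene and less RNA per cell cannot be told apart in such bulk samples.

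**Figure D1:**
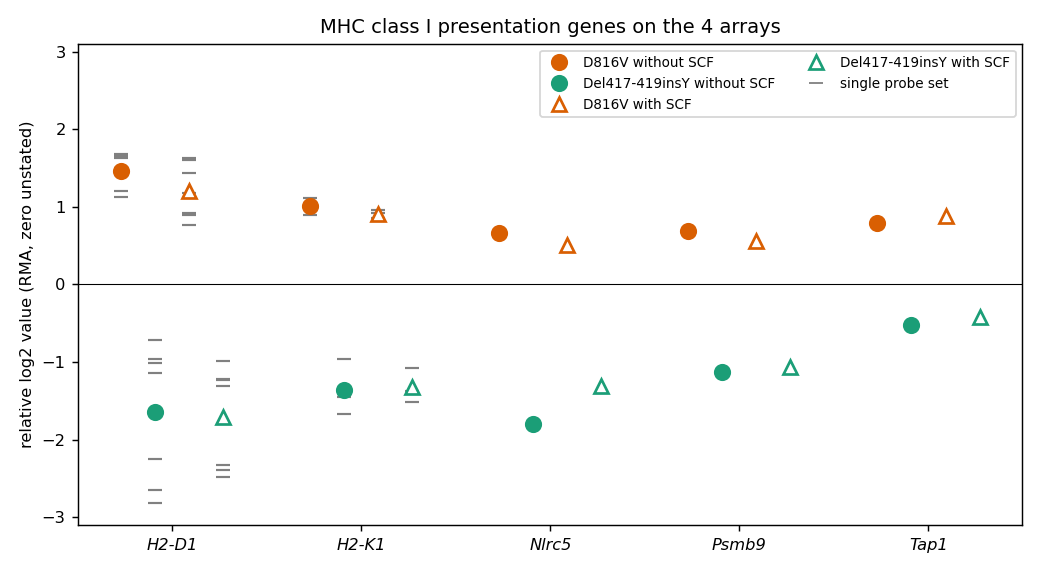
Relative log2 value (vertical axis) of each of the 5 genes on the 4 arrays. Filled circles are arrays without SCF, open triangles arrays with SCF, orange D816V and green Del417-419insY, and grey dashes the single probe sets of H2-D1 and H2-K1. Every D816V value lies above 0 and every Del417-419insY value below it, and the circles and triangles of a line lie close together.

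Nlrc5, the transactivator, had a value of 0.66 in D816V cells and -1.80 in Del417-419insY cells without SCF. With SCF it had 0.51 in D816V cells and -1.31 in Del417-419insY cells. The D816V arrays were the high ones in both conditions. The difference was 2.46 on the log2 scale without SCF, a 5.52-fold higher level, and 1.82 with SCF, a 3.53-fold higher level. Among all genes these were ranks 121 and 191 of 6404 from the top. Of the 5 genes, Nlrc5 had the widest change of its line difference between the conditions, at -0.65 (with SCF minus without SCF), against -0.02 to -0.21 for the others.

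H2-D1 and H2-K1 encode the heavy chains H-2D and H-2K, the classical class I molecules that hold the peptide. H2-D1, as the mean of its probe sets, had 1.46 in D816V cells and -1.65 in Del417-419insY cells without SCF, and 1.21 in D816V cells and -1.71 in Del417-419insY cells with SCF. Its difference was 3.11 without SCF and 2.91 with SCF, or 8.64-fold and 7.53-fold, the widest of the 5 genes on the mean of probe sets. With its highest-mean probe set alone it differed by 2.17 and 2.00, below Nlrc5 without SCF and below H2-K1, at 2.03 on the same basis, with SCF. That mean depends on the arbitrary zero of each probe set and is no measure of brightness. For H2-K1 the values were 1.01 in D816V cells and -1.36 in Del417-419insY cells without SCF, and 0.91 in D816V cells and -1.32 in Del417-419insY cells with SCF. It differed by 2.37 and 2.24, or 5.17-fold and 4.71-fold. Without SCF, H2-K1 and Nlrc5, neighbours in the order of differences, lay closer together than the SD of 0.26 among the 3 probe sets of H2-K1. With SCF the order on the mean of probe sets was H2-D1, H2-K1, Nlrc5, Psmb9 and Tap1.

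The probe sets of H2-D1 agreed in direction and not in size. Of its 7 probe sets, 3 gave 4.46, 4.32 and 3.88 without SCF, another gave 2.64, and the others gave 2.13 to 2.17. With SCF the 7 ranged from 1.88 to 4.09. On the D816V array without SCF they lay within 1.13 to 1.68, and on the Del417-419insY array without SCF they spread from -2.81 to -0.72. As each probe set has its own zero, the spread on a single array depends on where the zeros lie. Only the spread of the differences can be read. The 3 probe sets of H2-K1 were closer, at 2.07 to 2.57 without SCF and 2.03 to 2.44 with SCF. Apart from 1 probe set of H2-D1, all the H2-D1 and H2-K1 probe sets have names ending in _x_at, the manufacturer's mark for probes that may also match other transcripts. These genes are close paralogs, so how far a probe set reads the other heavy chain was not tested, and the labels do not give the haplotype of EML cells at this polymorphic locus. A further 2 probe sets carry the symbol of H2-K1 together with another and were left out of the gene values. They differed by 2.54 and 2.09 without SCF and by 2.37 and 2.53 with SCF. The values with SCF lay within the range of the H2-D1 probe sets. Without SCF the value of 2.54 lay within that range, and 2.09 lay just below its lower end of 2.13.

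**Figure D2:**
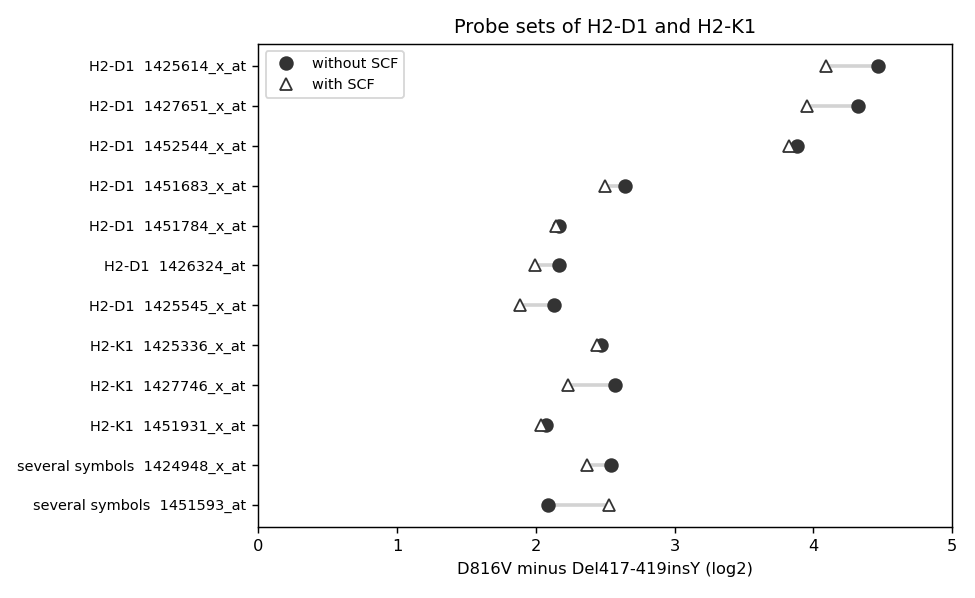
Difference between D816V and Del417-419insY cells (horizontal axis, log2) for each probe set of H2-D1 and H2-K1 and for the 2 probe sets annotated to several symbols. Circles are arrays without SCF and triangles arrays with SCF. Of the H2-D1 probe sets 3 lie near 4, and the remaining probe sets lie between 1.88 and 2.64.

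The upstream stretches of both heavy chain genes are shown because these genes moved together and because the boxes that NLRC5 acts through lie there. RefSeq's promoter table of GRCm38.p6, the C57BL/6J genome, held windows of 300 bases, from 250 before to 50 after an annotated start, for 4 of the 5 members. Each stretch below is written 5′ to 3′ on the strand of its gene and lies before the start used. H2-D1 is at chr17:35262918-35263032 on the plus strand and H2-K1 at chr17:34000349-34000463 on the minus strand. Capitals mark, in order, an NF-kB-like motif (GGGNNTTCC), the core of an interferon-stimulated response element (ISRE; GAANNGAAA, here on the other strand), the X2 core (TGACG) and the Y core (CCAAT, here on the other strand).
H2-D1: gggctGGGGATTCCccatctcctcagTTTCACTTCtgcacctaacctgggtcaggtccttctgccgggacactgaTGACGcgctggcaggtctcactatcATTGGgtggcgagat
H2-K1: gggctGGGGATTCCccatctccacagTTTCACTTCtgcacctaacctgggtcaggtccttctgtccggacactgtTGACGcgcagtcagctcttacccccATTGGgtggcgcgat
Position by position, 103 of the 115 bases were identical, or 89.6%. The first base of each match, counted from the start, was at -171, -150, -101 and -76 in H2-D1 and at -111, -90, -41 and -16 in H2-K1. All the capital letters are the same in both genes, and the order and spacing of the 4 matches are the same. Searched on both strands of all 32851 windows in the table, the NF-kB-like motif was present in 5.82%, the ISRE core in 7.52%, the X2 core in 20.8% and the Y core in 37.4%. A match is a description of letters and not of a bound factor.

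In both stretches 20 bases separate the X2 core from the Y core. The pair at this spacing, searched on both strands, was present in 31 of the 32851 windows, or 0.0944%, which belonged to 27 of 27025 genes. Among these 27 genes were also B2m, the light chain of class I molecules, and H2-M3, a heavy chain that presents formylated peptides. Their stretches are shown since they share the spaced pair with the members, and capitals mark the X2 and Y cores, of which H2-M3 has an extra Y core. B2m is at chr2:122147599-122147648 and H2-M3 at chr17:37270178-37270227, both on the plus strand.
B2m: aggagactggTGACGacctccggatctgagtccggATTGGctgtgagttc
H2-M3: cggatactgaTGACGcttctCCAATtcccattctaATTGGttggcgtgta
Apart from H2-D1 and H2-K1, 10 of the 27 genes were measured. Of these, 5 were called higher in D816V cells, 0 lower, and the rest did not pass, by the limma fit described with the other pathway genes, which called 17.9% of all genes higher and 24.7% lower. The 5 were H2-M3, B2m, Trim26, Znrd1 and Tecpr1, with mean log2 differences of 0.95, 0.51, 0.72, 0.83 and 0.89. Not passing were Ghitm, Hspa14, Kcnq1ot1, Nasp and Ubn1, at -0.29 to 0.11. The spacing was taken from the members after their values were known, so this count is a description.

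Psmb9 encodes a catalytic subunit of the immunoproteasome, the form of the proteasome that interferon induces. It had 0.69 in D816V cells and -1.14 in Del417-419insY cells without SCF, and 0.56 in D816V cells and -1.06 in Del417-419insY cells with SCF. Again both D816V arrays were above both Del417-419insY arrays. The differences were 1.82 and 1.62, or 3.54-fold and 3.07-fold. Tap1, a chain of the peptide transporter, had 0.80 in D816V cells and -0.53 in Del417-419insY cells without SCF, and 0.88 in D816V cells and -0.43 in Del417-419insY cells with SCF. Its differences of 1.33 and 1.30, or 2.51-fold and 2.47-fold, were the smallest of the 5 genes and the most alike between the conditions. As Psmb9 and Tap1, like Nlrc5, had 1 probe set each, no second probe set could check any of them.

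Psmb9 and Tap1 lie head to head on chromosome 17, and their starts in the RefSeq table are separated by 225 bases. That stretch is shown because it is upstream of both genes at once. It is at chr17:34187331-34187555, written on the plus strand, so that Psmb9 begins before its left end on the minus strand and Tap1 after its right end. Capitals mark the Y core and the X2 core.
Psmb9 to Tap1: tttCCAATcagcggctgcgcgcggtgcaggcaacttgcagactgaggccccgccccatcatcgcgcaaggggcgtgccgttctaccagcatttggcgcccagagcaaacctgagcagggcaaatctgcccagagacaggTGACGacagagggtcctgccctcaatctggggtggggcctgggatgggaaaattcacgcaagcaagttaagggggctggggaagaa
The letters of the NF-kB-like motif and of the ISRE core as written above were not in the windows of these genes. The interferon-gamma-activated site (GAS; TTCNNNGAA), which was present in 8.3% of all windows, was in no window of the 4 members.

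The other genes of the pathway were set against the whole table with limma, fitted with additive terms for line and SCF over all 4 arrays, with p-values adjusted by Benjamini-Hochberg over 6404 genes. With 1 array a group, its error is how far SCF acted differently in the lines, and no p-value from it includes the spread of repeated cultures. It called 42.6% of all genes at an adjusted p under 0.05, with 1147 (17.9%) higher and 1579 (24.7%) lower in D816V cells. Scaling turned this balance: higher and lower genes numbered 1628 and 1263 once cyclic loess was applied, 1526 and 1387 with quantile normalization, and 1720 and 1302 with median centring. Those scalings placed the median difference of all genes at -0.01 to 0.03 without SCF and at -0.002 to 0.036 with SCF, in place of -0.08 and -0.14.

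Apart from the members, 15 genes of the heavy chain, peptide loading and immunoproteasome lists were measured. Of these, 7 were called higher and 2 lower in D816V cells, and 6 did not pass. The median difference of the 15 was 0.55 without SCF and 0.27 with SCF. In both conditions none of them was 2-fold or more higher and 1, Cd1d1, was 2-fold or more lower. Over all genes these shares were 5.15% and 3.78%, so few of 15 genes would be counted at such shares.

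Among heavy chains, 4 of 22 other listed genes were measured. H2-M3 rose by a mean of 0.95 over both conditions (limma adjusted p = 0.0078). Class I-like molecules with other cargo fell. Cd1d1, which presents lipids, differed by -1.13 (limma adjusted p = 0.0024), and Mr1, which presents vitamin metabolites, by -0.66 (limma adjusted p = 0.017). H2-T24 did not pass, at 0.55 without SCF and 0.13 with SCF, and its value with SCF was -0.09 after cyclic loess and -0.01 after quantile normalization. The single-symbol heavy chain genes that were called thus lay in both directions. A further 2 probe sets, each annotated to several H2-T symbols and so not assigned to a gene, were higher in D816V cells, by 1.33 and 1.45 without SCF and by 0.97 and 1.74 with SCF. The second of these exceeded the difference of Tap1 in both conditions and that of Psmb9 with SCF.

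Of the light chain and loading genes, 7 of 8 were measured, 5 were higher and none was lower. Tapbp, or tapasin, which holds empty class I molecules at the transporter, was at 0.80, and its relative Tapbpl, a peptide editor, at 0.78. Tap2, the partner chain of TAP1, was at 0.70, B2m at 0.51 and Erap1, which trims peptides in the endoplasmic reticulum, at 0.38. The general chaperones Calr and Canx did not pass, at 0.16 and 0.10. After cyclic loess Canx was called higher, at 0.37 without SCF and 0.40 with SCF. Without the SCF term 3 of these genes passed, and B2m (limma adjusted p = 0.053) and Erap1 (0.104) did not. With each probe set as a feature Erap1 did not pass either (limma adjusted p = 0.0573). The difference of Tap1 was larger than that of Tap2 by 0.53 without SCF and 0.71 with SCF. H2-D1 and H2-K1 exceeded the light chain B2m by 2.51 and 1.77 without SCF and by 2.50 and 1.82 with SCF.

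The immunoproteasome list had 4 of 5 other genes measured. The remaining gene, Psme2, had only a probe set shared with Psme2b, which was not assigned to a gene. That probe set was higher in D816V cells by 0.87 without SCF and 0.77 with SCF. Psmb10, a catalytic subunit, rose by 0.79. The third catalytic subunit, Psmb8, was at 0.40 (limma adjusted p = 0.061), the activator subunit Psme1 at 0.36 (limma adjusted p = 0.063) and Psme3, of a nuclear activator, at -0.05, and these did not pass. After cyclic loess, quantile normalization or median centring, 3 of the 4 were called higher. Of the constitutive proteasome, 4 of 14 genes were measured and 0 were called: Psma5, Psma3 and Psmb2 were at 0.29, 0.26 and 0.20. Psmb6, the subunit whose place Psmb9 takes in the immunoproteasome, differed by -0.05 without SCF and 0.02 with SCF, the first of which was above 0 under each of the 3 scalings. With cyclic loess 1 and with median centring 2 of these 4 were called higher.

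**Figure D3:**
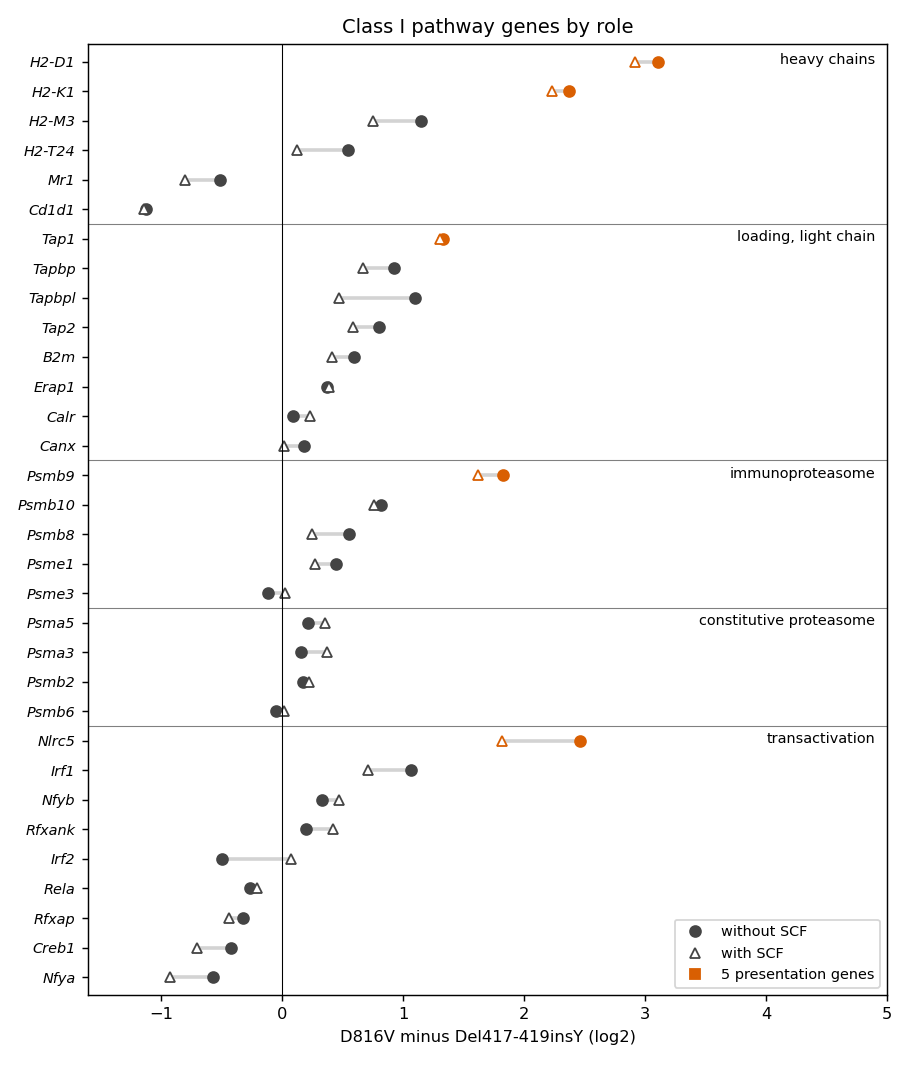
Difference between D816V and Del417-419insY cells (horizontal axis, log2) for measured class I pathway genes, grouped by role. Circles are arrays without SCF, triangles arrays with SCF, and orange marks the 5 presentation genes. The 5 genes lie between 1.30 and 3.11, and most loading and immunoproteasome genes between 0 and 1.10. The constitutive proteasome genes lie between -0.05 and 0.37 and overlap the other immunoproteasome genes.

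Of the factors that act on class I promoters besides Nlrc5, 8 of 13 were measured, 2 were higher and 2 lower. Irf1, an interferon-induced activator, rose by 0.89 and the NF-Y subunit gene Nfyb by 0.40, while the NF-Y subunit gene Nfya fell by 0.75 and Creb1 by 0.56. The RFX subunit genes Rfxank and Rfxap stood at 0.31 and -0.38, Rela, an NF-kB subunit gene, at -0.23 and Irf2 at -0.21, and these did not pass. The limma call of Nfya was lost after cyclic loess (adjusted p = 0.072), that of Creb1 with the highest-mean probe set (0.065), and those of Creb1 and Nfyb without the SCF term (0.080 and 0.11). With each probe set as a feature the limma call of Nfyb was also lost (adjusted p = 0.0525). Over all genes 17.9% were called higher and 24.7% lower, so no direction is read from the counts of this list.

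In the class II list 3 of 13 genes were measured. Cd74, the invariant chain that guides class II molecules, rose by 1.85, H2-Oa, a modulator of class II peptide loading, by 0.52, and Ifi30, a lysosomal thiol reductase, fell by 0.95. Of 17 genes of interferon receptors and signalling 13 were measured, with 4 higher and 2 lower. Usp18 and Socs1, inhibitors of interferon signalling, were at 4.03 and 2.27, the transcription factor Irf7 at 2.89 and the kinase Jak2 at 0.39. The type I receptor chains Ifnar1 and Ifnar2 fell by 0.65 and 0.62. The limma call of Jak2 was lost after cyclic loess (adjusted p = 0.157), quantile normalization (0.082) and without the SCF term (0.115), and that of Ifnar2 after cyclic loess (0.063) and with the highest-mean probe set (0.45). Without the SCF term H2-Oa did not pass (0.080).

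Markers of other cell types also differed between the lines, and their part in the class I values was not tested. Both measured dendritic markers were higher in D816V cells, Ccr7 by 2.47 and Itgax by 0.93, as were the T cell marker Cd247, by 2.31, and the macrophage marker Cd68, by 2.81. The NK cell marker Nkg7, at 0.09, and the macrophage marker Lyz2, at -0.86, did not pass. Of the mast cell markers 6 of 8 were higher and 1, Kit, was lower. Progenitor markers were 1 higher and 3 lower of 5. Over all genes 17.9% were called higher and 24.7% lower. Gata2, at 0.46, and Kit, at -1.42, are on both lists. Of the other progenitor markers Myb and Lmo2 were lower, at -0.68 and -0.43, and Runx1, at -0.64, did not pass. The limma call of Lmo2 was lost after each of the 3 scalings and without the SCF term. Those of Gata2, Myb and the mast cell markers Mcpt4 and Tpsb2 were lost without the SCF term.

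With SCF against without SCF, the 5 genes moved little. None of the 13 probe sets differed 2-fold in either line. Over all genes, 0.328% reached a 2-fold increase with SCF in D816V cells and 0.328% in Del417-419insY cells, and 1.31% and 0.547% reached a 2-fold decrease. In D816V cells the 5 genes ranged from -0.25 to 0.08, with a median of -0.13 against -0.05 over all genes. In Del417-419insY cells they ranged from -0.06 to 0.50, with a median of 0.07 against 0.03 over all genes. The SCF term of limma called 0 of 6404 genes, with 1186 at an unadjusted p under 0.05 and a smallest adjusted p of 0.089. It called 2 to 257 features under 7 of the alternatives. For the members its adjusted p was 0.52 for H2-D1, 0.63 for Nlrc5, 0.69 for Tap1, 0.91 for H2-K1 and 0.92 for Psmb9, and 0.057 to 1.0 over the alternatives. A p of this kind does not show that SCF left a gene unchanged.

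Nlrc5 had the widest SCF difference of the 5 genes on the mean of probe sets. In Del417-419insY cells it had -1.31 with SCF and -1.80 without SCF, a difference of 0.50, or 1.41-fold, at rank 263 of 6404 from the top. In D816V cells it had 0.51 with SCF and 0.66 without SCF, a difference of -0.15 that became 0.05 after cyclic loess. Neither heavy chain shared the size of this difference in Del417-419insY cells: H2-D1 stood at -0.06 and H2-K1 at 0.04, and H2-K1 was at -0.01 after quantile normalization. Psmb9 stood at 0.07 and Tap1 at 0.10 there.

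In D816V cells H2-D1 had the most negative SCF difference of the 5 genes, -0.25, with values of 1.21 with SCF and 1.46 without SCF. All 7 of its probe sets lay below 0 in this difference, from -0.68 to -0.04. In Del417-419insY cells 4 of the 7 lay below 0 and the range was -0.51 to 0.33. The 1 probe set of H2-D1 without the _x_at mark, at -0.68 in D816V cells and -0.51 in Del417-419insY cells, was the lowest in both lines, and both values exceed the difference of Nlrc5 in size. It is also the highest-mean probe set of H2-D1. Over the 13 member probe sets 12 were below 0 in D816V cells, but 7 of the 13 belong to H2-D1 and 3 to H2-K1. The share of all probe sets below 0 was not counted, so nothing is read from this number. In this line the median of all genes was -0.05 and was 0.05 after each of the scalings. H2-K1 differed by -0.10 and Psmb9 by -0.13 in D816V cells, and Tap1 by 0.08; after cyclic loess the value of H2-K1 was 0.01.

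**Figure D4:**
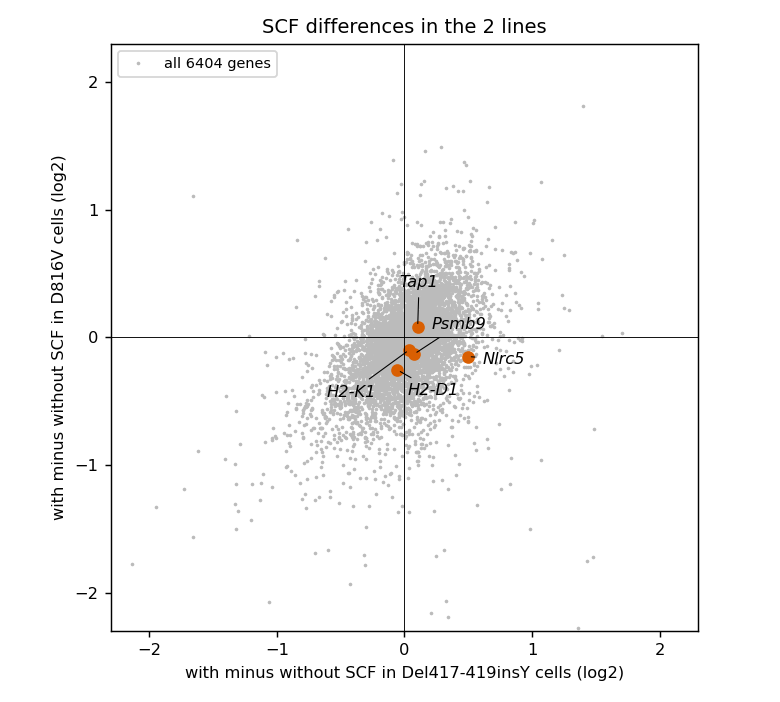
Difference between arrays with and without SCF in Del417-419insY cells (horizontal axis, log2) and in D816V cells (vertical axis, log2). Grey points are all 6404 genes and orange points the 5 presentation genes. The 5 lie within the cloud of genes, and Nlrc5, at 0.50 and -0.15, lies farthest to the right of the 5.

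Genes with profiles most like the members were sought over the 4 arrays, as the Euclidean distance between values centred on the mean of each gene, where 0 is an identical profile. With 4 arrays in 2 lines, such likeness mostly restates the line difference. Nearest to the mean profile of the 5 members were Inpp5a (0.148), Exoc3l (0.157), Hip1 (0.16), Stc2 (0.169) and Ltb4r1 (0.187). Pairs of members lay farther apart, from 0.363 between H2-K1 and Nlrc5 to 1.72 between H2-D1 and Tap1. Psmb9 and Tap1, with their shared upstream stretch, were at 0.433, and the heavy chain genes H2-D1 and H2-K1 at 0.72. Nearest to H2-D1 were Prnp (0.113), Rabgap1l (0.222) and Adam8 (0.241), and nearest to H2-K1 were Cyp11a1 and Zbp1 (both 0.093) and Hip1 (0.139). Nearest to Nlrc5 were Stc2 (0.096), Slfn2 (0.144) and Ltb4r1 (0.177), and nearest to Psmb9 were Ctsd (0.139), Serpinb1a (0.145) and Esr1 (0.174). For Tap1, Shisa5 (0.007), Ubac2 (0.03) and Mxd1 (0.056) were nearest. No member was among the 3 genes nearest to another member.

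In the RefSeq annotation H2-K1, Psmb9, Tap1 and H2-D1 lie in this order in the MHC on chromosome 17, and Nlrc5 lies on chromosome 8. Of 118 other genes annotated between H2-K1 and H2-D1, 26 were measured. Their median difference between the lines was -0.001 without SCF and 0.207 with SCF, 9 were called higher and 5 lower, and 2 were 2-fold or more higher in both conditions, where these calls took 17.9%, 24.7% and 5.15% of all genes. Those were Ltb, which encodes lymphotoxin beta, at 1.65 without SCF and 1.88 with SCF, and Sapcd1, at 2.23 and 2.03. Tap2 and Psmb8, the measured genes next to Tap1, were at 0.80 and 0.55 without SCF and 0.59 and 0.25 with SCF. The step between the lines at Psmb9 and Tap1 was thus not met at equal size by the genes beside them.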

How the data were processed

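RNA of 4 EML cultures was hybridised to Affymetrix mouse expression arrays, per the labels' protocols. The submitters' processing notes name RMA, with no version, as the authors' way to the deposited log2 values. The log base is taken from RMA's usual output, and the zero and the choice of the 10861 probe sets in the table are not stated. If variable probe sets were favoured, the shares called are too high. Scanner brightness was not used here to judge signal over background, and 4 arrays limit the precision.

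Symbols came from the platform annotation, with 9633 probe sets having 1 symbol, 264 several and 964 none, and were updated by gene ID to RefSeq GRCm38.p6 (11 had no match and kept theirs). A gene's value is the mean of its single-symbol probe sets, as the values are relative. Differences are D816V minus Del417-419insY and with SCF minus without SCF. All 4 arrays were fitted by lmFit and eBayes of limma 3.58.1 (R 4.3.3), two-sided, with 1 residual degree of freedom per gene. The prior SD was 0.127, with 4.1 prior degrees of freedom. The fit was tested on simulated data with additive effects and independent noise only. Those data held no SCF response that differs between the lines, so the test does not cover that source of error. Named were the 5 members with all their probe sets, called genes of the pathway lists, all measured genes of lists with 6 or fewer, and the nearest profiles. Genes of the module count, the neighbours on the chromosome and uncalled pathway genes were named after their values were seen. The members, lists and tests were chosen with earlier results of these data known. Alternatives were 3 scalings, 2 other probe set choices, a filter at the 25th percentile, 2 other priors and a fit without the other term.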

Additional observations from a re-analysis of the deposited data

Results flagged for a closer look

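On the deposited values, H2-K1, Nlrc5 and Psmb9 had SCF differences of opposite sign in the 2 lines. These differences between lines were not tested. Nlrc5 differed by -0.15 in D816V cells and 0.496 in Del417-419insY cells, H2-K1 by -0.097 and 0.039, and Psmb9 by -0.132 and 0.074. Only the value of Nlrc5 in Del417-419insY cells exceeded 0.2 in size. After cyclic loess H2-K1 and Nlrc5 were above 0 in D816V cells, at 0.007 and 0.046. The value of H2-K1 in Del417-419insY cells was below 0 under 4 of 6 alternatives. Of the other genes named, Ghitm, Irf2, Ubn1, Psme3 and Psmb6 had line differences of opposite sign with and without SCF, also untested. Ghitm was at -0.437 with SCF and 0.22 without SCF, and Irf2 at 0.073 with SCF and -0.493 without SCF. Ubn1 was at -0.041 with SCF and 0.256 without SCF, Psme3 at 0.027 with SCF and -0.116 without SCF, and Psmb6 at 0.016 with SCF and -0.046 without SCF.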

How the results depend on the processing

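Each of the 5 genes stayed higher in D816V cells under all alternatives that gave it a value, and the median over the members ranged from 2.05 to 2.50 without SCF and from 1.82 to 2.20 with SCF. H2-D1 moved most: with its highest-mean probe set it differed by 2.17 without SCF and 2.00 with SCF, and with the 25th percentile filter by 2.28 and 2.13. H2-K1 exceeded it with SCF under both, at 2.03 and 2.24, and Nlrc5 without SCF under the first, so H2-D1 did not keep its first place among the members under these choices. Both choices go by the mean of values whose zero is arbitrary, so they do not pick brighter probe sets. For H2-D1 a higher mean mostly went with a less negative value in Del417-419insY cells, and so with a smaller difference. The filter at the 25th percentile removed Nlrc5. The SCF difference of H2-K1 in Del417-419insY cells was below 0 under 4 of 6 alternatives. The line term called 4131 features with each probe set as a feature and 1603 genes without the SCF term, against 2726 genes. The SCF term, which called 0 genes, called 42 after cyclic loess, 2 after quantile normalization, 256 after median centring, 256 with the highest-mean probe set, 257 with each probe set as a feature, 22 with the 25th percentile filter and 10 with an intensity trend; the cause was not tested. Of the other heavy chain, loading and immunoproteasome genes, 4 probe sets were lower with each probe set as a feature, against 2 genes. No paired analysis was possible because each group has 1 array and the labels number no replicates. Leaving out an array leaves no residual. Background correction and a slide block were not run, since no scanner values were used. Without replicate arrays, a difference within a line such as those with SCF cannot be told from variation between cultures.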
